A study of Caenorhabditis elegans with 8 samples.

Results

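The genes described here are 55 named genes of the machinery that copies and divides chromosomes in Caenorhabditis elegans. They were taken from a list by name, with earlier results of these data known. The authors' junction table lists only introns above a minimum of reads in every control library, so being listed depends on measured reads. All 55 are among the 5762 genes with introns in that table. By role, 19 of them act in DNA replication, 15 in the kinetochore and its checkpoint, 2 in condensin, 12 in the centrosome and the spindle, and 7 in the control of the cell cycle. They hold 279 of the 20324 listed introns.

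All libraries came from whole adults of the wild-type strain N2, grown at 20 °C. In the control group, larvae of the fourth stage were fed for 24 h at 25 °C on E. coli carrying the empty feeding vector L4440. The spk-1(RNAi) group was fed in the same way on E. coli making double-stranded RNA of spk-1, whose protein is a kinase of the SR family of splicing factors. Each group had 4 libraries of polyadenylated RNA, from at least 100 pooled adults per condition, and the labels do not say whether the replicates were separate cultures, so the tests see the spread among libraries, which may be technical. What was counted are reads across introns, so a value describes spliced RNA, and unspliced RNA is not measured.

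Before replication, the origin recognition complex, CDC-6 and CDT-1 load the MCM helicase onto DNA, and the GINS complex turns the loaded helicase into a running one. The worm's chromosomes are holocentric: kinetochores form along their whole length on the centromeric histone HCP-3, and the KNL-1, MIS-12 and NDC-80 group of proteins joins them to microtubules. Somatic cells of the adult no longer divide, and the division machinery is made in the germline and loaded into the oocyte for the rapid cleavages of the embryo.

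Total junction reads ran from 1821717 to 47299659 per library, and the 55 genes took 1.12% to 1.51% of them. The member with the fewest reads in any library had 30, and the member intron with the fewest had 10, so that precision was lowest in replicate 2 of either group. The target itself was checked first. Summed over 8 introns of spk-1, the level was 337, 313, 488 and 541 normalised CPM, a read count scaled to the size of the library, in control replicates 1 to 4. It was 52.2, 74.7, 154 and 164 CPM in spk-1(RNAi) replicates 1 to 4, or 0.155, 0.239, 0.315 and 0.303 of the same-numbered control. The introns after exons 6 and 7 were left out of that sum after their values were seen, because they were 12.7- to 883-fold higher in the spk-1(RNAi) libraries, where spk-1 took up to 6.25% of junction reads. Marker genes of the germline, fixed as a list with earlier results known, were all listed (14 of 14), with a summed level of 4530 to 7427 CPM in controls and 4443 to 7173 CPM after spk-1(RNAi). All 12 oocyte markers were listed too, at 7709 to 11180 and 8346 to 10830 CPM. None of 9 sperm markers was listed, in a table that holds only introns with more than 20 reads in every control library.

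The levels of the 55 genes spanned a 28.6-fold range. Per listed intron, which adjusts for the number of listed introns, their median was 38.3 CPM against 21.3 CPM over all listed genes, and 43 of 55 lay above the latter. Introns with few control reads are not listed and transcript length is not adjusted for, so levels of different genes are only roughly comparable. Highest, in all 8 libraries, was cyb-3, a B-type cyclin, at 297 ± 68.8 CPM per intron in controls and 288 ± 38.4 after spk-1(RNAi) (SD, n = 4). Next came rnr-2, the small subunit of ribonucleotide reductase, pcn-1, the sliding clamp PCNA, and the cyclin B gene cyb-1, with 233, 188 and 141 CPM per intron over all 8 libraries. At the other end stood sas-4, emb-30 and orc-2 with 14.9, 12.8 and 10.2 CPM per intron over the 8 libraries, and orc-2 was lowest in 6 of them. Neighbours in this order mostly lay within each other's spread, as did cyb-3 and rnr-2, whose control levels were 297 ± 68.8 and 231 ± 66.4 CPM per intron. Within the MCM helicase, mcm-7 was highest of 6 subunit genes in all 8 libraries, at 66.4 to 154 CPM per intron, while the other 5 ranged from 34.3 to 91.6.

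**Figure D1:**
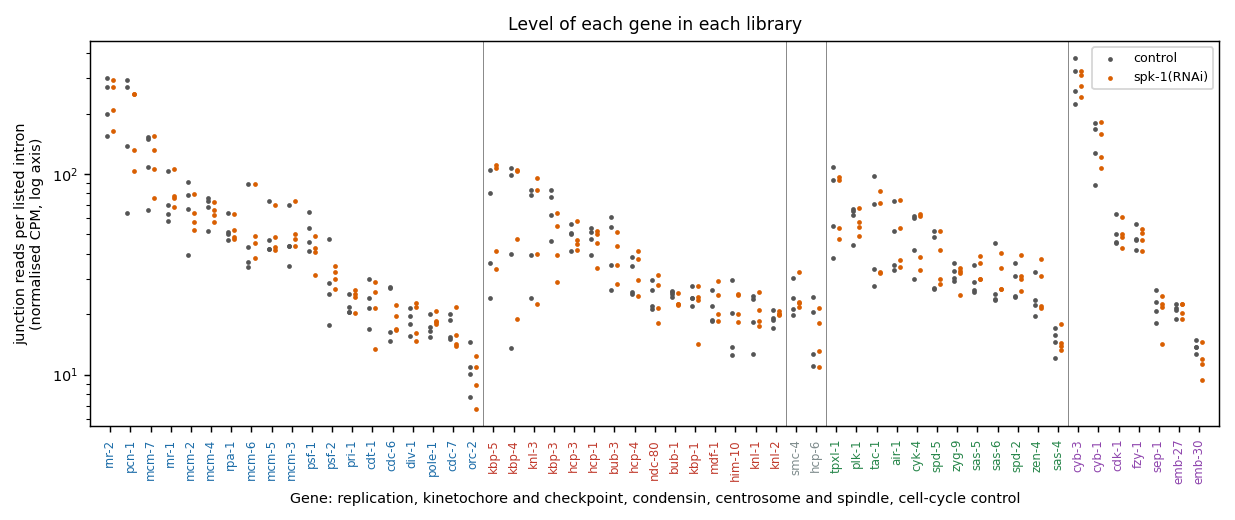
Junction reads per listed intron, in normalised CPM on a log axis, for each of the 55 genes in each of the 8 libraries, in order of level within the 5 roles. Grey points are control and orange points spk-1(RNAi) libraries; cyb-3 stands highest at 292.6 CPM over all libraries and orc-2 lowest at 10.2.

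Over the whole group, no difference in junction reads between spk-1(RNAi) and control libraries passed the test. In edgeR's quasi-likelihood test with the replicate number as a block, 0 of the 55 genes passed an adjusted p of 0.05 (background 0% of 5762 genes). DESeq2 also called 0 of the 55, where it called 0.885% of all genes, and at an unadjusted p under 0.05 edgeR gave 1 of the 55, kbp-3, which was lower, against 9.6% of all genes (4.51% lower and 5.09% higher). Without the block 0 members had an unadjusted p under 0.05, against 0.937% of all genes. Of the members, 30 had a log2 fold change above 0 and 25 below. Their median was 0.01, as over all genes, with quartiles of -0.06 and 0.10 against -0.14 and 0.13 for all genes. The median size of the change, without its sign, was 0.08 for members and 0.13 for all genes. No member had groups that did not overlap, in either direction (background 0.573% below and 0.469% above control). Members higher in all 4 numbered pairs were 6, namely mcm-3, mcm-6, rnr-1, pole-1, sas-5 and spd-2 (background 9.63%), and those lower in all 4 were 2, bub-1 and hcp-1 (background 9.55%). All of these but mcm-3 and sas-5 were named after their values were seen. For 52 of 55 genes the 95% interval of the fold change stayed within 1.5-fold in either direction, and those of psf-1, kbp-3 and him-10 reached beyond. In bulk RNA, fewer cells of a type and less RNA per cell cannot be told apart.

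**Figure D2:**
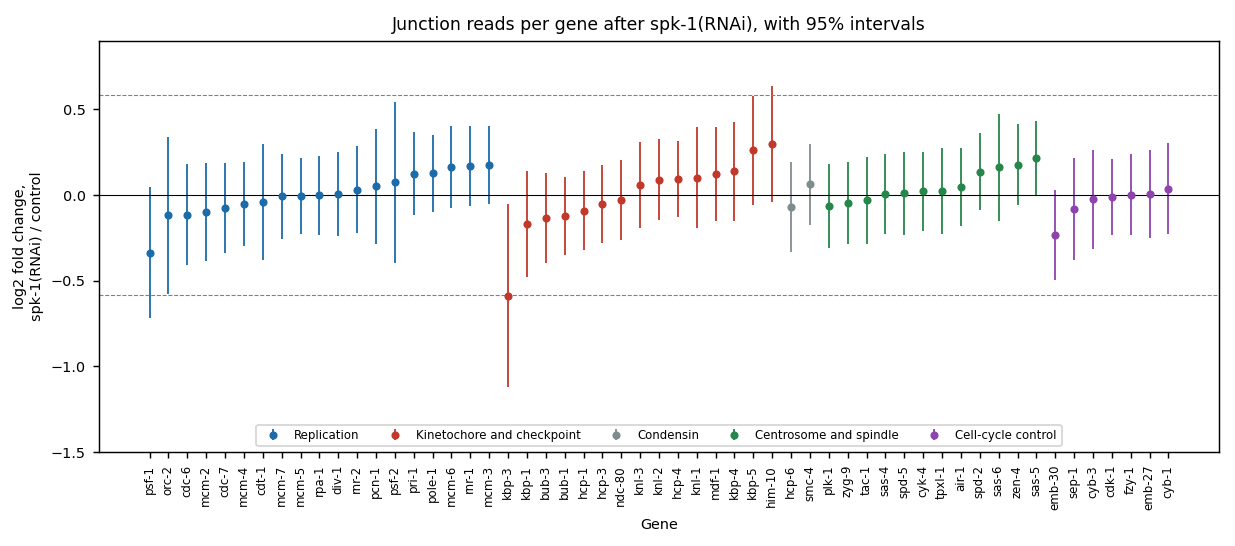
log2 fold change of junction reads per gene, spk-1(RNAi) over control, for the 55 genes by role, with 95% intervals of the edgeR fit on 4 pairs of libraries. The interval of kbp-3, from -1.12 to -0.05, is the one that leaves out 0, and the other 54 cross it.

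Among the 19 replication genes, 9 had fold changes above and 10 below control, with a median log2 fold change of 0.00 and a range of -0.34 to 0.17. None passed the test. Summed, they held 3370 to 4820 CPM in controls and 3630 to 4740 after spk-1(RNAi).

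The replication gene with the lowest p was psf-1 (R53.6, chromosome II), a subunit of GINS. Its control replicates 1 to 4 had 228.5, 207, 322 and 269.8 CPM, and its spk-1(RNAi) replicates 244, 213, 156 and 205. The ranges overlapped, and only spk-1(RNAi) replicates 3 and 4 lay under all controls. The log2 fold change was -0.34 ± 0.17 (SE, edgeR adjusted p = 0.555). psf-2, the other listed GINS gene, has 1 intron and ran from 17.6 to 47.7 CPM in controls and from 26.8 to 34.8 after spk-1(RNAi), with a log2 fold change of 0.07 ± 0.21 (SE).

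mcm-3 (C25D7.6, chromosome V), a subunit of the helicase, stood at 280.4, 139, 175 and 176 CPM in control replicates 1 to 4. After spk-1(RNAi) it stood at 294, 176, 190.2 and 201. Replicate 1 was highest in both groups, the groups overlapped, and each spk-1(RNAi) library was above its own control (log2 fold change 0.17 ± 0.10, adjusted p = 0.592 in edgeR). The other 5 MCM genes had log2 fold changes from -0.10 for mcm-2 to 0.16 for mcm-6.

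rnr-2 (C03C10.3, chromosome III) had 600.3, 463, 902 and 811 CPM in the 4 controls and 628, 489, 815 and 886 in the 4 spk-1(RNAi) libraries. Replicates 3 and 4 were above replicates 1 and 2 in both groups. The log2 fold change was 0.03 ± 0.12 (SE, adjusted p = 0.953), and that of rnr-1, the large subunit of the same enzyme, was 0.17 ± 0.11 (adjusted p = 0.616).

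orc-2 (F59E10.1, chromosome II), a subunit of the origin recognition complex, was low in every library. It had 20.1, 28.9, 21.9 and 15.4 CPM in controls and 21.8, 17.7, 24.6 and 13.5 after spk-1(RNAi), which overlap almost fully. Only 2 of its 5 annotated introns are listed, and its 95% interval ran from -0.58 to 0.34 on the log2 scale. The helicase loaders cdc-6 and cdt-1 had log2 fold changes of -0.12 ± 0.13 and -0.04 ± 0.15, and the origin-firing kinase gene cdc-7 had -0.08 ± 0.12.

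At the replication fork, the single-strand binding protein gene rpa-1 had a log2 fold change of 0.00 ± 0.11, pcn-1 0.05 ± 0.15, the polymerase epsilon gene pole-1 0.13 ± 0.10, the primase gene pri-1 0.12 ± 0.11, and div-1, of the polymerase alpha and primase complex, 0.01 ± 0.11. None of these passed the test, and their intervals allow changes of at most 1.31-fold up, the upper bound of pcn-1.

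Of the 15 kinetochore and checkpoint genes, 8 lay above and 7 below control, and none passed the adjusted threshold. Their median log2 fold change was 0.06, with a range of -0.59 to 0.30 that is set by genes of a single complex. The NDC-80 complex, which binds microtubules, is built of the proteins of ndc-80, him-10 (the worm's Nuf2), kbp-3 (Spc25) and kbp-4 (Spc24). In the 8-library fit the log2 fold changes of these 4 genes were -0.03 ± 0.11, 0.30 ± 0.15, -0.59 ± 0.24 and 0.14 ± 0.13.

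kbp-3 (F26H11.1, chromosome II) had 187, 139, 229 and 251 CPM in control replicates 1 to 4. After spk-1(RNAi) its replicates 1 to 4 had 192, 166, 86.3 and 118. In replicates 1 and 2 the spk-1(RNAi) library was slightly above its control, while in replicates 3 and 4 it was far below, and lower than in every control. The log2 ratios of the 4 pairs were 0.03, 0.25, -1.41 and -1.09. Over all pairs the log2 fold change was -0.59 ± 0.24 (SE, edgeR adjusted p = 0.498), a 0.666-fold level with a 95% interval of 0.46 to 0.964.

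Replicates 3 and 4 differed from replicates 1 and 2 in depth and in the level of many genes, and the labels do not say why. Whether the spk-1(RNAi) change differed between these sets of libraries was tested as an interaction in edgeR over all 5762 genes. The 1 gene called was kbp-3, with a difference of -1.39 ± 0.24 on the log2 scale (SE, adjusted p = 0.0484). At an unadjusted p under 0.05 there were 3 members, 5.5% of the 55, and 6.7% of all genes. The call was lost with DESeq2's size factors (adjusted p = 0.0923), without replicate 2 (0.721), without replicate 3 (0.197) and with the most-read intron per gene (0.21), where the difference stayed between -1.41 and -1.24. When a replicate is left out, the lone pair of its set is assumed to vary like the others.

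In pairs 3 and 4 alone, kbp-3 had a log2 fold change of -1.26 ± 0.15 (SE, edgeR adjusted p = 4.44e-14), and psf-1 of -0.73 ± 0.14 (adjusted p = 4.01e-05). These were the 2 of 55 members that passed, 3.64%, where 3.7% of all genes did (213 of 5762). In pairs 1 and 2 alone the log2 fold changes were 0.14 ± 0.20 for kbp-3 and 0.07 ± 0.21 for psf-1, and 0 members passed, where 56 genes did (0.972%). Fits of 4 libraries with a block leave hardly any degrees of freedom for the spread, and depth moves with these sets: replicates 3 and 4 had 28177090 to 47299659 reads and replicates 1 and 2 had 1821717 to 7938914. The part of depth, or of any other difference between the sets, in the change of kbp-3 was not tested.

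**Figure D3:**
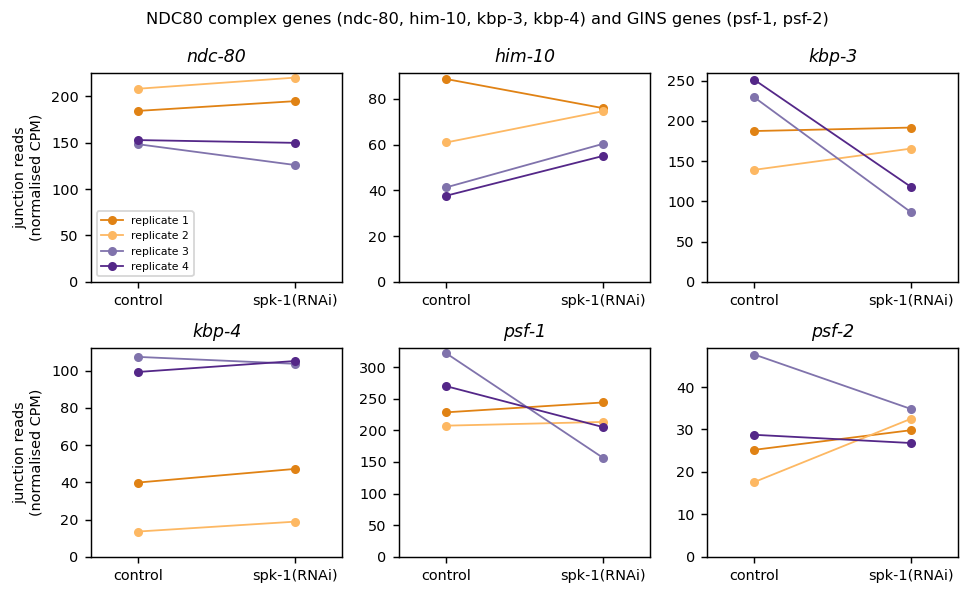
Normalised CPM of the NDC-80 complex genes and the GINS genes in each library, with a line from each control to the spk-1(RNAi) library of the same replicate number. The kbp-3 lines of replicates 3 and 4 run from 229 and 251 to 86.3 and 118, while those of replicates 1 and 2 run slightly upward.

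The lower kbp-3 level in pairs 3 and 4 was seen at each of its 3 introns. In pair 3 the fold was 0.299 after exon 2, 0.428 after exon 3 and 0.381 after exon 4, and in pair 4 it was 0.356, 0.46 and 0.648. In pair 2, with at most 207 reads an intron, the same introns had 0.641, 2.08 and 2.92. psf-1 was less even: in pair 3 its introns after exons 1 and 2 had folds of 0.356 and 0.395, and those after exons 3, 4 and 5 had 0.678, 1.03 and 0.72. In pair 4 the 5 psf-1 introns had folds of 0.709, 0.629, 0.906, 0.783 and 1.01. The intron after exon 1 had 7644 and 3837 reads in control replicates 3 and 4, against at most 1657 and 1048 at any other psf-1 intron. It therefore weighs most in the fold change of psf-1 in these pairs.

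him-10 (R12B2.4, chromosome III) had the highest fold change of all members. It stood at 88.7, 61.0, 41.4 and 37.7 CPM in controls and at 76.0, 74.7, 60.4 and 55.1 after spk-1(RNAi). Replicate 1 was lower after spk-1(RNAi) and the other 3 higher, and the groups overlapped (log2 fold change 0.30 ± 0.15, edgeR adjusted p = 0.557).

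**Figure D4:**
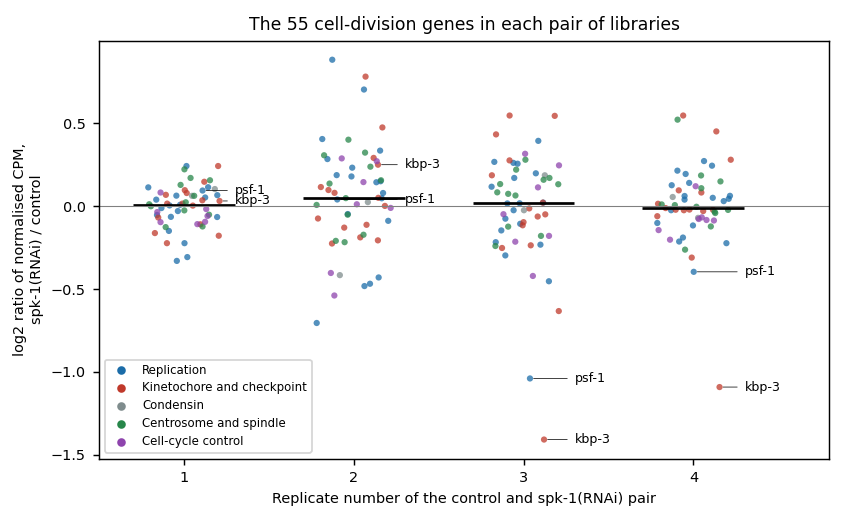
log2 ratio of normalised CPM, spk-1(RNAi) over control, of each of the 55 genes in each numbered pair, with a bar at the median and colours for the 5 roles. The medians are 0.01, 0.05, 0.02 and -0.01, and kbp-3 and psf-1 lie lowest in pair 3 and in pair 4.

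kbp-5 (C34B2.2, chromosome I), which encodes a binding partner of KNL-1, had the highest kinetochore level per intron as a mean over all 8 libraries, 67.2 CPM against 66.8 for kbp-4. The order changed between libraries: kbp-5, kbp-4, kbp-3 and hcp-3 were each highest in 2 of 8. Its controls had 72.2, 47.9, 210.4 and 161 CPM, and its spk-1(RNAi) libraries 66.9, 82.4, 214 and 221. Replicates 3 and 4 were above replicates 1 and 2 in both groups, and the log2 fold change was 0.26 ± 0.15 (SE, adjusted p = 0.583). knl-2 (K06A5.4, chromosome I), whose protein loads the centromeric histone, was lowest per intron as a mean over the 8 libraries but in only 2 of them, with 154, 169, 136 and 150.1 CPM in controls. It varied little after spk-1(RNAi), at 158, 160.1, 165 and 160.3 CPM, within the control range (log2 fold change 0.09 ± 0.11, adjusted p = 0.824).

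At the chromatin end of the kinetochore, hcp-3 (the worm's CENP-A) had a log2 fold change of -0.05 ± 0.10 and hcp-4 (CENP-C) of 0.09 ± 0.10, with intervals within -0.281 to 0.315. The scaffold gene knl-1 had 0.10 ± 0.13, and the MIS-12 complex genes knl-3 and kbp-1 had 0.06 ± 0.11 and -0.17 ± 0.14. Of the checkpoint genes, bub-1, a kinase gene, was lower in all 4 pairs by little, with 127 ± 3.4 CPM in controls and 116 ± 7.9 after spk-1(RNAi) (SD, n = 4). Its log2 fold change was -0.12 ± 0.10 (edgeR adjusted p = 0.733). bub-3 had -0.135 ± 0.118 and mdf-1, the worm's Mad1, 0.12 ± 0.12. hcp-1, a relative of CENP-F, had -0.09 ± 0.11.

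Condensin compacts chromosomes before they segregate. smc-4 (F35G12.8, chromosome III), an ATPase subunit, had 424, 298, 278 and 336 CPM in controls and 455, 304, 317 and 320.2 after spk-1(RNAi). Replicate 1 was highest in both groups, and spk-1(RNAi) replicate 1 stood apart from the 3 others of its group. The log2 fold change was 0.06 ± 0.11 (SE, adjusted p = 0.883). hcp-6 (Y110A7A.1, chromosome I), a subunit of condensin II, had 124, 146, 66.2 and 75.7 CPM in controls and 129, 109, 65.2 and 78.8 after spk-1(RNAi), lower in replicates 3 and 4 of both groups (log2 fold change -0.07 ± 0.12, adjusted p = 0.882).

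Among the 12 centrosome and spindle genes, 9 lay above and 3 below control, with log2 fold changes from -0.06 to 0.22, and none passed the test. sas-5 (F35B12.5, chromosome V), needed to build centrioles, had the lowest p of them. Its CPM was 210.2, 174, 154 and 158 in controls and 234, 215, 179.8 and 179.9 after spk-1(RNAi). Each spk-1(RNAi) library was above its own control, while the groups overlapped (log2 fold change 0.22 ± 0.10, adjusted p = 0.516 in edgeR). Its partners in the centriole, sas-4 and sas-6, had 0.01 ± 0.11 and 0.16 ± 0.14.

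zen-4 (M03D4.1, chromosome IV) encodes the kinesin of centralspindlin, which bundles the midzone of the spindle for cytokinesis. Controls had 227, 165, 137 and 155 CPM, and spk-1(RNAi) libraries 265, 217, 150.1 and 153. The groups overlapped, and pairs 1 to 3 were higher after spk-1(RNAi) (log2 fold change 0.18 ± 0.11, adjusted p = 0.603). Its partner in centralspindlin, the GTPase-activating protein gene cyk-4, had 0.02 ± 0.10.

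tpxl-1 (Y39G10AR.12, chromosome I), the activator of Aurora A, was highest of this role per intron as a mean over the 8 libraries and in the 4 of replicates 3 and 4, while air-1 was highest in the 4 of replicates 1 and 2. tpxl-1 had 219.5, 152, 435 and 372 CPM in controls and 216, 190.0, 385 and 375 after spk-1(RNAi), so replicates 3 and 4 were above replicates 1 and 2 in both groups (log2 fold change 0.02 ± 0.12, adjusted p = 0.962). Its listed introns include the longest of any member, 4906 nt (chrI:2297922-2302827, ce10), with 46.1 ± 22.8 CPM in controls and 45.1 ± 11.6 after spk-1(RNAi) (SD, n = 4). That was 0.55 and 0.547 of the mean of the other tpxl-1 introns. sas-4 (F10E9.8, chromosome III), the lowest of this role per intron in all 8 libraries, had 137, 116, 96.6 and 126 CPM in controls and 143, 112, 106 and 115 after spk-1(RNAi), within a common range.

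Of the kinase genes of the spindle, plk-1 (Polo) was at -0.06 ± 0.11 and air-1 (Aurora A) at 0.05 ± 0.10 on the log2 scale. spd-2 and spd-5, which assemble the material around the centrioles, had 0.14 ± 0.10 and 0.01 ± 0.11, and the microtubule polymerase gene zyg-9 and its partner tac-1 had -0.05 ± 0.11 and -0.03 ± 0.12.

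In the control of the cell cycle, 3 genes lay above and 4 below control, and none passed the test. cyb-3 (T06E6.2, chromosome V) had 1300, 1118, 1888 and 1636 CPM in controls and 1206, 1366, 1628 and 1562 after spk-1(RNAi), a narrower range inside that of the controls (log2 fold change -0.03 ± 0.13, edgeR adjusted p = 0.962). emb-30 (F54C8.3, chromosome III), a subunit of the anaphase-promoting complex, had the lowest p of this role. It stood at 110.1, 119.3, 101 and 109.6 CPM in controls and at 117, 90.2, 75.5 and 95.3 after spk-1(RNAi). Replicate 1 was above its control and the other 3 were below every control (log2 fold change -0.23 ± 0.12, adjusted p = 0.559).

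sep-1 (Y47G6A.12, chromosome I) encodes separase, which cuts cohesin at anaphase. It had 185, 145, 126 and 161 CPM in controls and 173, 99.8, 157 and 152 after spk-1(RNAi), with the lowest value in spk-1(RNAi) replicate 2 (log2 fold change -0.08 ± 0.14, adjusted p = 0.881). cdk-1, the mitotic kinase, was at -0.01 ± 0.10, its cyclin gene cyb-1 at 0.04 ± 0.12, fzy-1, which activates the anaphase-promoting complex, at 0.00 ± 0.11, and emb-27, a subunit of it, at 0.01 ± 0.12.

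Because SR proteins act on splicing, single introns were examined as well. Introns of the 55 genes are short, with a median of 49 nt against 58 nt over all listed introns, and 209 of 279 (74.9%) are under 60 nt, where 51.3% of all are. In the fit over introns, edgeR called 0 of the 279 (background 0.0689% of 20324 introns). DESeq2 called 0 as well (background 0.246%). At an unadjusted p under 0.05 there were 19, 6.81%, against 8.4% of all introns, 11 of them lower and 8 higher after spk-1(RNAi).

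The intron with the lowest p was that of kbp-3 after exon 2 (chrII:14389781-14389835, ce10, minus strand, 55 nt). It had 62.6, 92.7, 90.1 and 96.2 CPM in controls and 71.7, 59.4, 26.95 and 34.3 after spk-1(RNAi), lower in pairs 2, 3 and 4 (log2 fold change -0.95 ± 0.26, edgeR adjusted p = 0.308). Without replicate 1 it was the 1 member intron called, 0.358% of 279 where 0.143% of all introns were, at -1.33 (adjusted p = 0.0221).

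The next lowest was that of air-1 after exon 4 (chrV:8222066-8222109, plus strand, 44 nt), at 76.8, 32.2, 20.3 and 21.7 CPM in controls. After spk-1(RNAi) it had 77.5, 65.1, 43.4 and 32.4 CPM, higher in all 4 pairs while the groups overlapped (log2 fold change 0.67 ± 0.20, adjusted p = 0.362). In emb-30, the intron after exon 14 (chrIII:9436144-9436343, minus strand, 200 nt) was lower in all 4 pairs, with 17.03, 12.98, 37.7 and 30.9 CPM in controls and 15.6, 10.3, 11.2 and 18.8 after spk-1(RNAi) (log2 fold change -0.80 ± 0.26, adjusted p = 0.405). The sas-4 intron after exon 6 (chrIII:8316761-8316936, minus strand, 176 nt) had 12.4, 11.2, 12.7 and 20.5 CPM in controls and 10.03, 11.1, 3.53 and 10.2 after spk-1(RNAi), lower in all 4 pairs (-0.88 ± 0.30, adjusted p = 0.436). In smc-4 the intron after exon 13 (chrIII:4592474-4592522, plus strand, 49 nt) was higher in all 4 pairs, with 38.3, 21.0, 23.7 and 19.8 CPM in controls and 46.5, 37.9, 38.2 and 26.7 after spk-1(RNAi) (0.55 ± 0.18, adjusted p = 0.436). None of these 4 passed the test. Each gene as a whole had a smaller fold change than its own intron, which the choice of introns by lowest p favours.

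Whether reads shifted between introns of a gene was tested in the 53 members with at least 2 listed introns. None passed (edgeR's diffSpliceDGE with Simes adjustment; background 0.0686% of 4370 genes), and 3 had an unadjusted p under 0.05, 5.66% against 2.63% of all genes. These were air-1, sas-4 and rpa-1, each with an adjusted p of 1. Relative to its gene, the air-1 intron after exon 4 was at 0.43 and the sas-4 intron after exon 6 at -0.615 on the log2 scale. Both introns had been picked above by their low p.

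A single pair of listed member introns shares a splice site, at a donor of cyb-3 (chrV:15395742-15395796 and chrV:15395742-15395793, ce10), where the acceptor lies 55 or 52 nt away. The longer intron was used in 2.07%, 4.41%, 2.15% and 3.28% of reads in control replicates 1 to 4 and in 3.22%, 2.11%, 2.57% and 2.43% after spk-1(RNAi), with at least 715 reads at the site. The groups overlapped, at 2.98% ± 1.11 and 2.58% ± 0.47 (SD, n = 4), and the difference did not pass the test (adjusted p = 0.922), where 5.33% of 150 shared sites did.

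In the authors' deposited table of introns, 4 of the 279 member introns had a p under 0.01, 1.43%, against 1.26% of all introns. These deposited p-values were 0.00387 for bub-1 after exon 1, 0.00465 for cyb-3 after exon 2, 0.00793 for hcp-6 after exon 9 and 0.00903 for kbp-1 after exon 1. In the present fit all 4 were lower after spk-1(RNAi), by log2 changes of -0.17, -0.08, -0.36 and -0.49, and none passed the test. Of all introns 9889 of 20324 were lower in that fit, and of the member introns 133 of 279. The 4 were picked by p-values from the same reads, so no common decrease is concluded. The authors' deposited table of exon bins holds 435 bins of the 55 genes, of which 426 have a p-value. None had an adjusted p under 0.05 (background 0.00355% of bins) or an unadjusted one (background 0.986%), and the lowest deposited p among them was 0.0704, in kbp-1, whose bins are merged with those of an overlapping gene. That table gives no direction.

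A further 110 listed genes of the same processes, from a list of 122 drawn up by function, were described in the same way. None passed the adjusted threshold in edgeR or in DESeq2, and 4 had an unadjusted p under 0.05 in edgeR (3.64%, all genes 9.6%). The median log2 fold change of the 110 genes was -0.01. The 3 with the lowest p were cyb-2.1, another B-type cyclin gene, at 0.27 ± 0.10 (adjusted p = 0.447), ify-1, the worm's securin, at 0.28 ± 0.11 (adjusted p = 0.483), and cdk-4 at -1.35 ± 0.56 (adjusted p = 0.499). cdk-4 was scarce, with 4.78, 9.49, 4.33 and 2.74 CPM in controls and 4.64, 2.59, 0.45 and 1.90 after spk-1(RNAi). Introns were listed by their reads in control libraries alone, with no such floor after spk-1(RNAi). For a gene this scarce, that selection can favour lower values after spk-1(RNAi), so no decrease of cdk-4 is concluded from its fold change.

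Markers of non-dividing tissue were set beside the members. The 5 listed epidermis markers (of 9) had a median log2 fold change of 0.79 and the 8 listed muscle markers (of 10) of 0.41, with summed levels of 600 to 1343 and 2901 to 11110 CPM in controls and 992 to 1971 and 4184 to 11790 after spk-1(RNAi). The medians were highest in pair 2, at 0.72, 1.57, 0.49 and 0.50 for epidermis and 0.32, 1.25, 0.04 and 0.12 for muscle in pairs 1 to 4. None of these markers passed the adjusted threshold in edgeR, and 5 of 5 and 4 of 8 had an unadjusted p under 0.05 (all genes 9.6%). DESeq2 called 3 of the epidermis and 0 of the muscle markers (all genes 0.885%). The 5 listed intestine markers (of 8) and the 3 listed neuron markers (of 7) both had a median of 0.20, and DESeq2 called 1 and 0 of them. The germline and oocyte lists had medians of 0.01 and 0.00. The 55 genes summed to 10430 to 13450 CPM in controls and 11030 to 13040 after spk-1(RNAi), and any part of the tissue makeup in their levels was not tested.

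The members differed far more between the sets of libraries than between the groups. With group as a covariate, edgeR called 14 of the 55 higher in replicates 3 and 4 than in replicates 1 and 2, 25.5%, against 26.1% of all genes. This fit had no block, so same-numbered libraries of both groups counted as independent. Its standard errors and p-values may therefore be too small, and its counts of calls too high. It called 12 lower, 21.8%, against 24.2%. The highest was kbp-4, the Spc24 gene, with 39.9, 13.6, 107 and 99.2 CPM in controls and 47.2, 18.9, 104 and 105 after spk-1(RNAi), a log2 difference of 1.75 ± 0.31 (adjusted p = 0.00107). After it came kbp-5 at 1.58, knl-3 at 1.42, tac-1 at 1.35, pcn-1 at 1.29 and tpxl-1 at 1.01. The lowest were air-1 at -0.85, hcp-6 at -0.82, mcm-6 at -0.82 and spd-5 at -0.80. Within 1 complex the genes parted: him-10 was at -0.66 and kbp-4 at 1.75, so that the relative levels of subunits of the NDC-80 complex depend on which libraries are read.

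The spliced length of the longest annotated transcript went along with this difference as a description. The 14 members called higher had a median of 1421 nt, the 12 called lower 2589 nt and the other 29 genes 2205 nt. Across the 55 genes, which share the same libraries, Spearman's rho of length with the difference between sets was -0.30, and over 5522 genes it was -0.11. With the spk-1(RNAi) change, rho of length was 0.01 over the 55 genes and -0.14 over the 5522. Tissue markers differed between the sets as well. In the same fit 7 of 8 muscle markers were called higher in replicates 3 and 4 and 0 lower, with a median log2 difference of 1.79. The medians were 0.92 for neuron, 0.62 for epidermis, 0.27 for intestine, 0.01 for oocyte and -0.03 for germline markers. What sets these libraries apart was not tested, and the labels name no date or run.

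**Figure D5:**
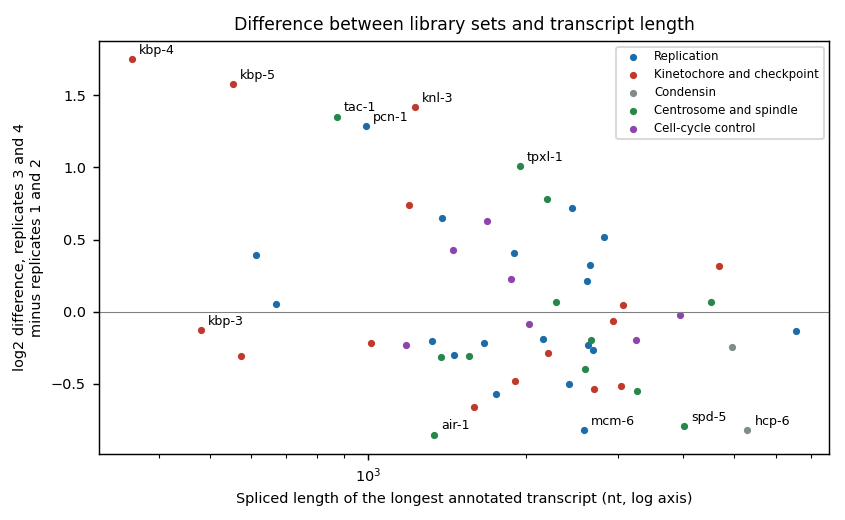
log2 difference between replicates 3 and 4 and replicates 1 and 2, both groups together, against the spliced length of the longest annotated transcript in nt on a log axis, 1 point per gene and 1 colour per role. kbp-4 (355 nt) and kbp-5 (553 nt) stand highest at 1.75 and 1.58, and air-1 (1338 nt) lowest at -0.85. Of other short transcripts, kbp-3 (480 nt) is at -0.13, kbp-1 (574 nt) at -0.31, psf-2 (612 nt) at 0.395 and psf-1 (668 nt) at 0.05.

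By position, the 55 genes lie on chromosome I (15), II (10), III (17), IV (5) and V (8), and none on X, which holds 6.84% of the listed genes.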

How the data were processed

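Per the file headers, the authors' junction table holds, for each intron, unnormalized read counts by library, a ratio of the 2 libraries in each numbered pair, and a p-value. Exon bins have p-values and a mean signal in a second deposited table. Per the submitters' processing notes, genome build ce10 was used, with Bowtie2 2.0.0 and TopHat 1.4.1 among the tools, and the read counter is not given in the sources used here. By its values, the junction table lists no intron with 20 or fewer reads in any control, so introns seen mostly after spk-1(RNAi) would be missed.

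The 55 members, the other gene lists and the tests were chosen with earlier results of these data known. Columns were assigned by their headings. A heading stood over 2 spk-1(RNAi) columns, and their numbers, 1 and 4, were read from the authors' ratios, which equalled the quotient of the mapped columns in 100% of introns and that of other columns in at most 0.32%, compared in the digits printed. Of introns listed on both strands, 25 in all and 0 in members, 1 copy was kept. No column of per-sample values was unused (0).

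Reads were summed per gene and tested in edgeR 4.0.16 (R 4.3.3, quasi-likelihood test) after filterByExpr, with TMM factors of 0.832 to 1.221, the replicate number as a block, and Benjamini-Hochberg adjustment over all 5762 genes at 0.05. Introns were tested likewise, and usage with diffSpliceDGE. The block was used because the authors' ratios pair libraries by number. Deviations from the group means correlated at 0.686 to 0.881 between same-numbered libraries, at 0.243 to 0.699 between different numbers within replicates 1 and 2 or within 3 and 4, and at -0.713 to -0.545 across these sets, so this check mostly follows the sets. Within sets, the difference of the 2 controls correlated with that of the same-numbered spk-1(RNAi) libraries at 0.608 for replicates 1 and 2 and at 0.104 for 3 and 4, over genes without spk-1. DESeq2 1.42.0 was an alternative. The scripts were tested on simulated data. CPM are normalised by TMM, and errors of fold changes are standard errors. Named members are, in each role, the 2 with the lowest p, those highest and lowest per listed intron, and any whose groups do not overlap. For introns the 5 lowest p, for usage and for other pathway genes the 3 lowest are named. Members named for other reasons were chosen after their values were seen. Coordinates are the authors', in ce10, counted from 1, and a reference annotation of another build gave symbols, intron numbers and transcript lengths. Reads of overlapping genes could be shared in the authors' counting. Alternatives were no block, DESeq2's size factors, DESeq2, no filter, at least 30 reads in every library, each pair left out, subsets of pairs, spk-1 left out, and the most-read intron per gene.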

Additional observations from a re-analysis of the deposited data

Results flagged for a closer look

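For smc-4, spk-1(RNAi) replicate 1 had 455.1 CPM, far from the 304 to 320.2 CPM of the other 3 libraries of its group relative to their range. This was the 1 such value in 34 groups of 4 libraries examined, where chance flags about 1 in 20. The control of the same number was also the highest of its group, at 424 CPM.

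For kbp-3 the change with spk-1(RNAi) differed between replicates 3 and 4 and replicates 1 and 2, by -1.386 on the log2 scale (edgeR interaction, adjusted p = 0.0484). The fold was below 1 in both pairs of the one set and above 1 in both pairs of the other. Over the alternatives the adjusted p ran from 0.00166 without replicate 1 to 0.721 without replicate 2.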

How the results depend on the processing

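With the replicate number left out as a block, members at an unadjusted p under 0.05 went from 1 to 0 by gene, from 19 to 1 by intron and from 3 to 0 for usage within genes, and the further cell-division genes from 4 to 0. Over all features the share fell, from 9.6% to 0.937% of genes, from 8.4% to 0.851% of introns and from 2.63% to 0.0686% for usage. No member call at the adjusted threshold was lost, since the blocked fit made 0 among members. Over all features, calls went from 14 to 0 introns, from 3 to 1 genes for usage and from 8 to 2 shared sites. Leaving out each replicate in turn, members at an unadjusted p under 0.05 ran from 0 to 5 (at most 9.09%, where all genes gave 6.35% to 13.2%). Member introns ran from 9 to 28 (all introns 5.49% to 10.9%) and usage from 0 to 3 (all genes 0.732% to 4.35%). Member introns called ran from 0 to 1 (all introns 0.0541% to 0.143%). In pairs 3 and 4 alone, 2 members were called (all genes 3.7%) and 3 had an unadjusted p under 0.05 (5.45%, all genes 13.8%). In these pairs 7 member introns were called (2.51%, all introns 1.41%) and 41 had an unadjusted p under 0.05 (14.7%, all introns 11.3%). The intron fit of these pairs was chosen after seeing the data. In pairs 1 and 2 alone 0 members had an unadjusted p under 0.05 (all genes 7.08%). The median log2 fold change of the members was 0.047 in pairs 1 and 2 and 0.037 in pairs 2 and 3, against 0.007 over all pairs. Taking the most-read intron for its gene gave 6 members at an unadjusted p under 0.05 (10.9%, all genes 8.89%). The authors' deposited intron p-values gave 19 member introns under 0.05 (6.81%, all introns 6.02%) and 0 under 0.001 (all introns 0.118%).

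The interaction of kbp-3 with library set lost its call with DESeq2's size factors (-1.41, adjusted p = 0.0923) and with the most-read intron (-1.347, adjusted p = 0.21), where 0 members were called, and ran from -1.546 to -1.244 with a replicate left out, with 0 to 2 members called. Without replicate 1, 2 of 55 members (3.64%) and 242 of 5762 genes (4.2%) were called, and without replicate 4, 1 member and 32 genes. Except for the size factors, these alternatives were chosen after seeing the data, and the cause was not tested.

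Of 238 values of the 17 named genes under 14 alternatives, 25 reversed in sign, none of them past the threshold, and 6 genes never reversed. Without the block tpxl-1 was at -0.018. Leaving out a replicate gave -0.043 to 0.053 for sas-4, -0.131 to 0.032 for cyb-3, -0.236 to 0.03 for orc-2, -0.117 to 0.03 for hcp-6, -0.067 to 0.089 for tpxl-1, -0.227 to 0.05 for sep-1 and -0.002 to 0.085 for rnr-2. In pairs 2 and 3, rnr-2 was at -0.034 and cyb-3 at 0.037. In pairs 3 and 4, rnr-2 was at -0.019, hcp-6 at 0.007, sas-4 at -0.003, tpxl-1 at -0.094 and sep-1 at 0.111. In pairs 1 and 2, psf-1 was at 0.069, knl-2 at -0.017, kbp-3 at 0.137 and cyb-3 at 0.09. With the most-read intron, rnr-2 was at -0.019, smc-4 at -0.539, tpxl-1 at -0.008 and sep-1 at 0.258. The cause was not tested.

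Depth limits what can be seen in replicates 1 and 2, where a member intron had as few as 10 reads. Intervals of single members, without adjustment for the number of genes, were 0.218 to 0.534 wide on either side on the log2 scale. They come from the fit with the block. Without it standard errors were larger, for example 0.289 against 0.242 for kbp-3 and 0.642 against 0.13 for kbp-4. An estimated change smaller than this width leaves an interval that takes in 0, and the power to detect a change was not computed. Because calls used adjusted p-values, larger changes could be missed too, as kbp-3 at -0.587 was not called (edgeR adjusted p = 0.498). The planned promoter description was not run.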
